A study of Mus musculus with 14 samples.

Results

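Hepcidin and the main carriers, receptors, exporters and stores of iron were followed through the livers of mice with concanavalin A hepatitis. The 10 genes were taken by symbol from the deposited tables: the peptide hormones Hamp and Hamp2, the siderophore-binding protein Lcn2, the plasma carrier Trf, the uptake and sensing genes Tfrc, Tfr2 and Steap4, the exporter Slc40a1, and the ferritin chains Fth1 and Ftl1. All 10 were found among the 17656 genes of each table, and all 10 passed the filter on low values in every comparison. Of 72 other symbols of iron metabolism listed by role, 70 were in the tables and served as the wider pathway.

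Concanavalin A (ConA) is a plant lectin that activates T cells and brings on acute liver injury when given by vein. The study asked how loss of YTHDF1, a cytoplasmic reader of N6-methyladenosine in RNA, changes that injury. Liver RNA was sequenced 8 h after injection, with 1 library per mouse and values in TPM (transcript abundance scaled for length and summing to the same total in each library, so that levels can be compared between genes). The 4 groups were WT mice given saline (WT saline, n = 3), mice labelled Ythdf1 knockout given saline (KO saline, n = 3), WT mice given ConA at 8 mg/kg (WT ConA, n = 4), and mice labelled Ythdf1 knockout given ConA at 8 mg/kg (KO ConA, n = 4). All were C57BL/6 mice, and the study's methods and legends describe WT littermates, males and knockout mice made with CRISPR/Cas9. The labels give no age, and the study's methods give a range of weeks for its mice. A legend that includes a liver RNA-seq heatmap gives 8 weeks for male WT mice, at a higher dose of ConA.

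Hepcidin is made by hepatocytes, and it binds ferroportin, the product of Slc40a1, at the surface of macrophages, hepatocytes and gut cells, which leads to loss of the exporter and keeps iron inside cells. Its transcription is raised by iron through BMP ligands and SMAD proteins, and by inflammation through IL-6 and STAT3. In the acute phase response the liver also secretes carriers that hold iron and heme away from microbes, among them lipocalin 2, haptoglobin and hemopexin. Iron regulatory proteins act later, on the mRNAs: they hold back translation of ferritin and ferroportin and protect the mRNA of the transferrin receptor when iron is scarce.

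Several features of the libraries touch the results below. WT saline replicates 2 and 3 differed by a median of 0.12 on the log2 scale over 100 genes, against 0.27 to 1.80 in the other 17 replicate pairs. The tables hold no read counts, so sampling noise and depth are unknown and both were kept, and each call that is lost when they are averaged is given as such. Replicates 3 of both ConA groups stood apart along the second principal component (7.77% of the variance), and their results are also given without those libraries. The TPM of Ythdf1 itself spanned 12.03 to 13.9 (saline) and 18.7 to 25.6 (ConA) in WT livers, and 18.4 to 20.8 (saline) and 15.5 to 26.2 (ConA) in KO livers. A deletion of part of a gene can leave its summed TPM in place, so that value checks nothing about the label, and the genotype rests on the labels. The 8 hepatocyte markers summed to 109306 to 135805 TPM in the saline livers and 53942 to 82240 TPM after ConA. Not all 8 fell. Tat rose from 726 to 1154 TPM to 1272 to 2101 TPM in WT, and from 1060 to 1321 TPM to 1622 to 2015 TPM in KO. The median of Apob rose in KO (211 to 292 TPM) and fell in WT (330 to 289 TPM). In whole liver fewer cells of a type and less RNA per cell cannot be told apart.

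**Figure D1:**
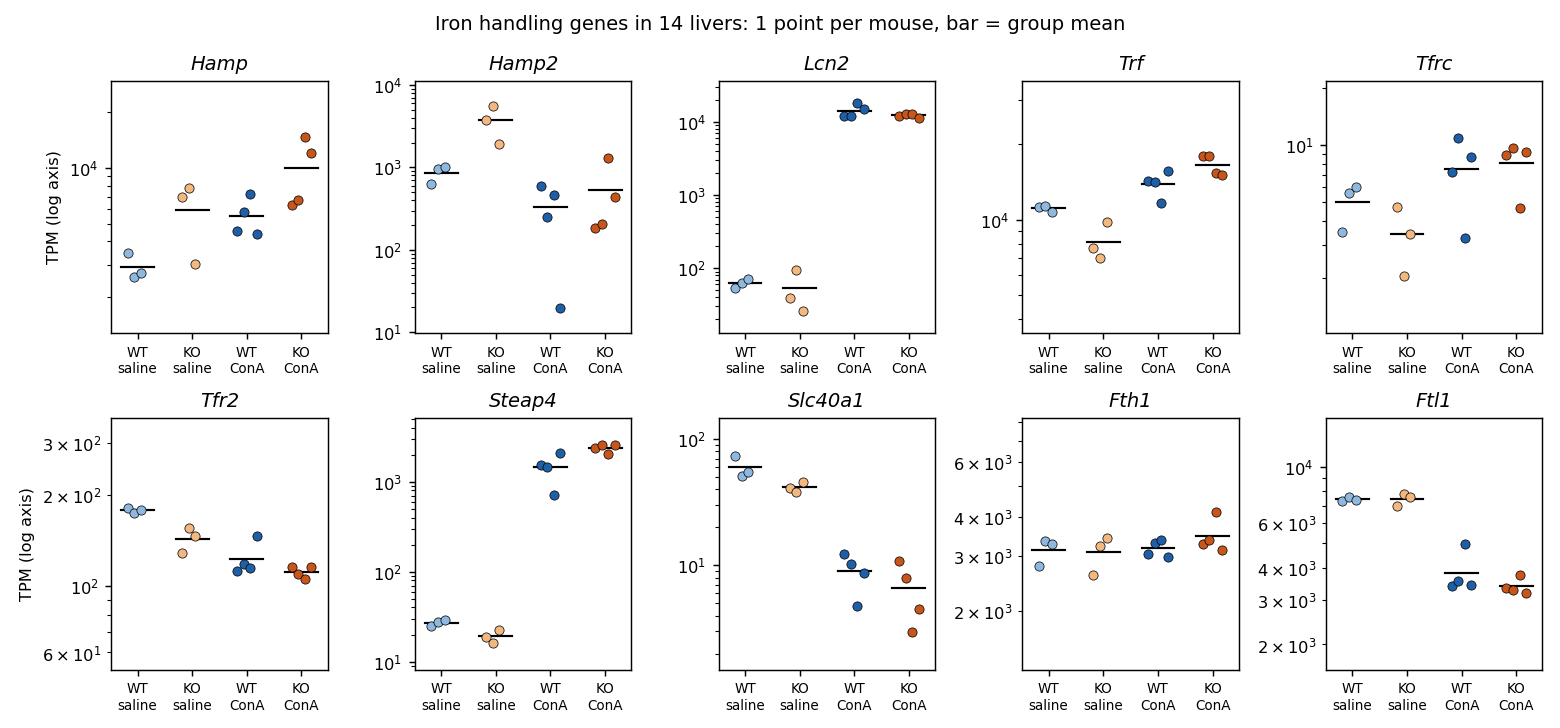
TPM of the 10 genes in each of the 14 livers (vertical axis, log scale, 1 panel per gene) by group (horizontal axis), with 1 point per mouse and a bar at the group mean. Lcn2 and Steap4 in all 8 ConA livers lie above every saline liver, Slc40a1 and Ftl1 in all 8 lie below every saline liver, and Fth1 lies between 2608 and 4137 TPM in all 14.

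In WT saline Trf and Ftl1 were the highest of these transcripts, and in KO saline the ranges of Trf, Ftl1 and Hamp overlapped. In WT saline the order of mean levels was Trf (11113 TPM), Ftl1 (7429), Fth1 (3138), Hamp (2904), Hamp2 (865), Tfr2 (178), Lcn2 (62.6), Slc40a1 (59.5), Steap4 (27.2) and Tfrc (5.05). Neighbours in that order did not overlap between mice, except Fth1 with Hamp and Lcn2 with Slc40a1. After ConA the order in WT was Lcn2 (14130 TPM), Trf (13929), Hamp (5488), Ftl1 (3825), Fth1 (3176), Steap4 (1452), Hamp2 (329.99), Tfr2 (123), Slc40a1 (9.04) and Tfrc (7.49). Here Lcn2 overlapped with Trf, Hamp with Ftl1, Ftl1 with Fth1, Hamp2 with Tfr2, and Slc40a1 with Tfrc. By mean level, Lcn2 moved from place 1539 to place 11 among all genes, and Slc40a1 from place 1601 to place 5345. Together the 10 genes took 2.55 to 3.17% of the summed TPM of a saline liver and 3.94 to 5.42% of that of a ConA liver.

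Hamp and Hamp2 are neighbouring copies of the hepcidin gene on the minus strand of chromosome 7, at chr7:30942368-30944032 and chr7:30922372-30924681 of GRCm38, with 17686 bases between them. The annotated transcript with the longest coding sequence was taken for each, and each has 3 exons. These 2 transcripts were identical at 330 of 391 aligned bases (84.4%). Of their 50-base stretches (the length of the reads), 83.4% in Hamp and 84.0% in Hamp2 occurred in no other gene. The Hamp2 transcript taken has 308 annotated coding bases, against 249 for Hamp. Of the Hamp stretches, 60 occurred in some transcript of Hamp2, whereas 16 stretches of the Hamp2 transcript taken occurred in Hamp. The identity and the shares therefore depend on the transcript taken. Reads from stretches shared by the copies could be assigned to either copy. In the Hamp2 transcript taken, 44 stretches lie in the noncoding gene Gm44662 on the opposite strand, which was not the case for Hamp. Whether the counting used strand is not given in the sources used here, so reads of Hamp2 and of Gm44662 cannot be told apart where they overlap. Stretches of 80 bases of the proximal promoters are shown because the copies differed in their values while most bases of these stretches are shared. Capitals mark an inverted repeat bound by STAT proteins, TTCNNNGAA, and a BMP response element, GGCGCC, each searched on both strands. The stretches, from RefSeq on GRCm38.p6, are chr7:30944097-30944176 for Hamp and chr7:30924246-30924325 for Hamp2, both minus strand.
Hamp: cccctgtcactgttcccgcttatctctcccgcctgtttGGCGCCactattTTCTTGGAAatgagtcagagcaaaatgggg
Hamp2: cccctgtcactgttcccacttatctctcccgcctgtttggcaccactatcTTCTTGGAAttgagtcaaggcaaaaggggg

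The stretches were identical at 73 of 80 bases. Counted from the first printed base, with Hamp first, the differences were G18A, G42A, T50C, A60T, G68A, A69G and T76G, and G42A falls in the BMP response element. The STAT repeat lay 97 bases before the Hamp start site and 94 bases before that of Hamp2. Among 32851 promoters of 300 bases in the same table, 8.30% held the STAT repeat and 11.9% held the BMP element. These matches describe the sequence of the window and are not evidence of binding.

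Hamp rose after ConA in WT livers. It had 3469, 2557 and 2687 TPM in the WT saline mice and 4553, 5782, 7236 and 4380.5 TPM in the WT ConA mice, without overlap. Such separation, in either direction, was common among all genes tested. It held for 58% after ConA in WT, 64.3% after ConA in KO, 42.3% between the saline groups and 10.5% between the ConA groups. In KO mice Hamp had 6939, 7826 and 3038 TPM with saline and 6321, 6686, 14752 and 12037 TPM with ConA. These ranges overlapped, with ConA replicates 1 and 2 below saline replicates 1 and 2. KO saline replicate 3 lay well below the other two, near the WT saline level. The log2 fold change was 0.90 ± 0.20 (SE; a 1.87-fold rise; limma, Benjamini-Hochberg adjusted p = 0.0041) in WT and 0.76 ± 0.37 (adjusted p = 0.0919, 95% interval -0.06 to 1.58) in KO. The interaction of genotype and ConA for Hamp was -0.14 (95% interval -1.16 to 0.88, adjusted p = 0.875). With single libraries left out the KO change ranged from 0.34 (without KO saline replicate 3, adjusted p = 0.415) to 1.02 (without KO saline replicate 2, adjusted p = 0.0477).

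Between genotypes Hamp was not called under either treatment. The difference of KO saline from WT saline was 0.93 ± 0.34 (limma adjusted p = 0.0888), and with single libraries left out it ranged from 0.67 (without KO saline replicate 2, adjusted p = 0.218) to 1.36 (without KO saline replicate 3, adjusted p = 0.0094). KO ConA differed from WT ConA by 0.79 ± 0.28 (adjusted p = 0.193), with overlapping ranges.

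Hamp2 was lower after ConA in both genotypes and was called in KO. It had 629, 968 and 999.9 TPM in WT saline, 3785, 5579.6 and 1922 TPM in KO saline, 587, 248, 466 and 19.6 TPM in WT ConA, and 182, 203, 1301 and 433 TPM in KO ConA. Every ConA liver lay below every saline liver of its own genotype, and WT ConA replicate 4 lay far below all others. The fall was 3.17 ± 0.60 on the log2 scale in KO (limma adjusted p = 7.73e-04). In WT the log2 fold change was -2.13 ± 0.98 and missed the threshold (adjusted p = 0.0967). With single libraries left out it ranged from -2.67 (without WT ConA replicate 1, adjusted p = 0.0566) to -1.05 (without WT ConA replicate 4, adjusted p = 0.0242). The interaction was -1.04 (95% interval -3.82 to 1.74), and it ranged from -2.12 to -0.51 with single libraries left out.

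In the saline livers Hamp2 was higher in KO than in WT by 2.02 ± 0.37 on the log2 scale, a 4.05-fold difference (limma adjusted p = 0.0200), and all 3 KO mice lay above all 3 WT mice. This call was lost with WT saline replicates 2 and 3 averaged (2.13, adjusted p = 0.0836), and also without WT saline replicate 2 (adjusted p = 0.0821), WT saline replicate 3 (0.0917) or KO saline replicate 1 (0.0612), and with 1 spread shared by all 14 libraries (0.271). The summed TPM of the 9 erythroid markers in the tables spanned 1629 to 3869.8 (WT) and 2774 to 17138 (KO) in these saline livers, highest in KO saline replicate 1. Globin genes made up most of each sum. Of the 9, only Klf1 had a lower median in KO (3.40 TPM, range 3.32 to 5.51) than in WT (6.04 TPM, range 5.46 to 6.27). For the 6 stellate cell markers the sums were 27.6 to 107 (WT) and 132 to 215 (KO). Their part in the difference was not tested. In the ConA livers the genotypes differed by 0.98 (95% interval -1.14 to 3.09, adjusted p = 0.664).

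**Figure D2:**
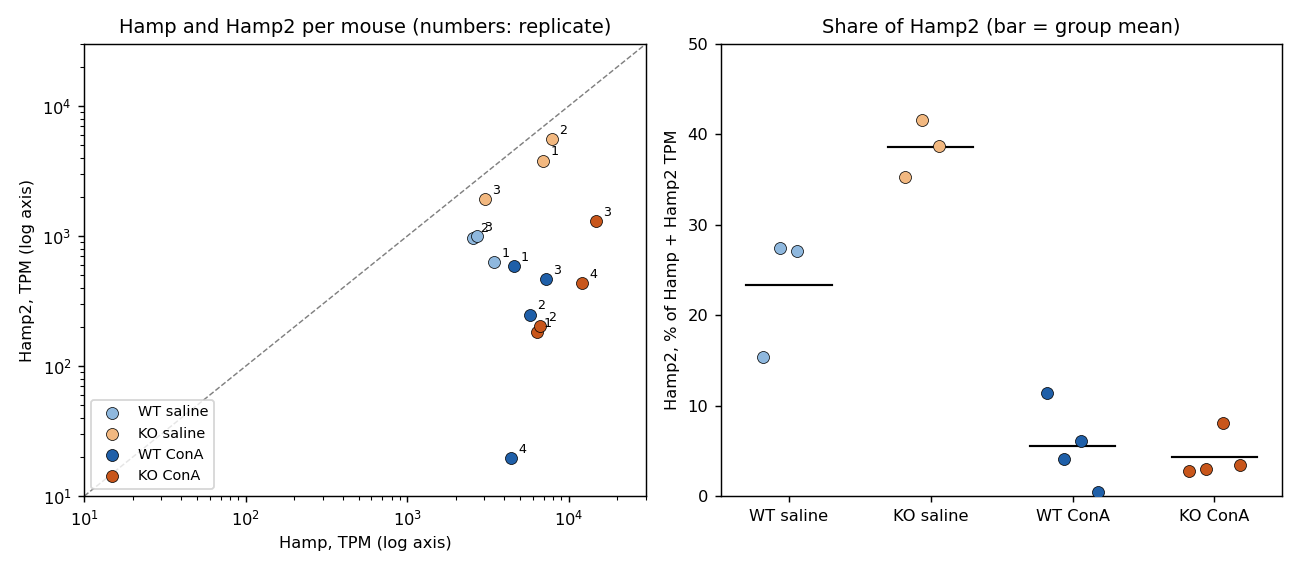
Left, Hamp (horizontal axis) against Hamp2 (vertical axis) in TPM on log axes, 1 point per mouse with its replicate number, and equality as a dashed line. Right, the share of Hamp2 in the sum of both in percent, with a bar at the group mean: all 6 saline livers lie between 15.3% and 41.6%, all 8 ConA livers between 0.445% and 11.4%.

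The share of Hamp2 in the pair was lower in every ConA liver than in any saline liver. Hamp2 made up 15.3, 27.5 and 27.1% of the summed TPM of the pair in WT saline and 35.3, 41.6 and 38.8% in KO saline. After ConA its share was 11.4, 4.11, 6.05 and 0.445% in WT and 2.79, 2.95, 8.11 and 3.47% in KO. No test was run on this share. The sum of both copies spanned 3525 to 4098 TPM (saline) and 4400 to 7702 (ConA) in WT, and 4959.8 to 13406 (saline) and 6502 to 16053 (ConA) in KO.

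The genes whose log2 levels followed Hamp most closely over the 14 libraries were Gm13889 (Pearson r = 0.88), Higd1a (0.86) and Slc3a2 (0.85). This is a description over libraries that share treatment groups. Gm13889 spanned 0.52 to 4.36 TPM in the saline livers, with 3.62 to 5.23 TPM after ConA in WT and 7.33 to 26.7 TPM after ConA in KO.

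Genes of the IL-6 and STAT3 route to hepcidin rose after ConA. In WT, 5 of 8 tested rose and none fell, with a median log2 fold change of 1.27, and in KO 8 of 8 rose, with a median of 1.69. Over all genes tested the medians were -0.07 and 0.07, and 22.0% of genes in WT and 33.9% in KO were called higher. Of the 9 genes listed, the ligand gene Il6 fell below the filter, with at most 0.59 TPM in any liver. The receptor gene Il6ra was not among those that rose in WT, with 5.88 to 7.83 TPM (saline) and 1.84 to 10.04 TPM (ConA). Socs3, the feedback inhibitor induced by STAT3, went from 3.37 to 4.43 TPM to 36.2 to 71.8 TPM in WT (log2 fold change 3.31, limma adjusted p = 4.38e-06). In KO it went from 2.58 to 2.98 TPM to 51.6 to 114 TPM (4.38, adjusted p = 1.96e-07). Stat3 itself, the transcription factor of the route, rose from 24.3 to 25.2 TPM to 66.4 to 108 TPM in WT and from 16.2 to 18.7 TPM to 111 to 129.7 TPM in KO.

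In the saline livers 3 of 7 tested genes of this route were lower in KO, as were 12.9% of all genes: Il6ra, the binding chain of the IL-6 receptor (log2 difference -1.13, limma adjusted p = 0.0089), Stat3 (-0.47, 0.0192) and Socs3 (-0.42, 0.0420). None of the other iron genes was called in that comparison once WT saline replicates 2 and 3 were averaged. The change of Stat3 after ConA was larger in KO by 0.89 ± 0.20 (interaction, adjusted p = 0.0314), which was lost with those 2 libraries averaged (adjusted p = 0.1004) and without any 1 of WT saline replicates 2 and 3, KO saline replicates 1 and 2 and KO ConA replicates 2 and 4 (adjusted p from 0.0562 to 0.101). In the ConA livers 0 of 8 were called between genotypes by limma, beside 0.428% of all genes. An unadjusted p under 0.05 was found for 5 of 8, but the share of all genes at that unadjusted threshold was not computed, so this count has no background.

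Genes of the BMP and SMAD route were called in both directions. After ConA 2 of 15 tested genes rose and 5 fell in WT (22.0% and 31.0% of all genes), and 4 of 16 rose and 4 fell in KO (33.9% and 30.7%). Hjv, the BMP co-receptor that raises hepcidin, fell most, from 52.9, 59.2 and 59.1 TPM to 5.56, 7.96, 5.76 and 6.89 TPM in WT (-2.95 ± 0.15, limma adjusted p = 9.29e-07). In KO it fell from 43.2 to 57.4 TPM to 1.81 to 9.02 TPM (-3.22, adjusted p = 1.76e-05). Tmprss6, the protease that cleaves hemojuvelin and so lowers hepcidin, fell by 1.21 and 0.88 on the log2 scale in WT and KO. Atoh8, a transcription factor of the hepcidin promoter, rose from 8.80 to 9.77 TPM to 19.4 to 27.9 TPM in WT and from 11.4 to 12.6 TPM to 23.0 to 31.7 TPM in KO. Bmp2, a ligand made by liver endothelial cells, fell in KO from 1.68 to 2.87 TPM to 0.42 to 1.0 TPM (-0.99, adjusted p = 6.98e-04).

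Id1, a direct target gene of BMP and SMAD signalling, was the only other iron gene called between the ConA groups. It had 7.21, 11.96 and 13.1 TPM in WT saline, 9.86, 16.5 and 9.17 in KO saline, 4.89, 4.72, 2.62 and 5.30 in WT ConA, and 23.5, 16.4, 39.5 and 43.4 in KO ConA. The 4 KO ConA livers were all above the 4 WT ConA livers, by 2.49 ± 0.30 on the log2 scale (limma adjusted p = 0.0126). Id1 fell after ConA in WT (-1.12, adjusted p = 0.0045) and rose in KO (1.25, adjusted p = 0.0050), and the interaction was 2.37 ± 0.45 (adjusted p = 0.0213). In the saline livers the genotypes differed by 0.12 (adjusted p = 0.759). Over all genes 0.342% were called higher in the KO group of this comparison. The difference between the ConA groups was called without each library in turn and lost with no filter on low values (adjusted p = 0.0686), and the interaction was lost with WT saline replicates 2 and 3 averaged (2.25, 0.0828), without either of them, or without KO saline replicate 1.

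Of the same route, 6 of 16 tested genes differed between the saline groups, where 19.2% of all genes did (6.30% higher in KO, 12.9% lower). Acvr2a, Bmpr1a, Smad4 and Smad5 (receptors and signal carriers) were lower in KO, with log2 differences of -0.45, -0.28, -0.42 and -0.46. Atoh8 and Bmp2 were higher, by 0.32 and 0.70. The summed TPM of the 7 sinusoidal endothelial markers spanned 22.5 to 31.0 (WT) and 35.1 to 58.8 (KO) with saline, and their part in the Bmp2 difference was not tested.

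Lcn2 encodes lipocalin 2, which binds bacterial siderophores and is made by inflamed hepatocytes and stored in neutrophil granules. It lies at chr2:32384633-32388252 (minus strand, GRCm38). It rose from 53.4, 63.4 and 71.1 TPM to 11859, 11907, 18023 and 14732 TPM in WT. In KO it rose from 39.7, 95.6 and 25.99 TPM to 12011, 12948, 12686 and 11404 TPM. Every ConA liver was far above every saline liver. The log2 fold changes were 7.78 ± 0.18 in WT (a 220.1-fold rise, limma adjusted p = 2.88e-08) and 8.02 ± 0.33 in KO (259-fold, adjusted p = 1.58e-08). KO ConA differed from WT ConA by -0.18 (95% interval -0.53 to 0.16), and KO saline from WT saline by -0.42 (95% interval -1.38 to 0.54). The saline difference was -0.93 without KO saline replicate 2 (adjusted p = 0.0489) and -0.012 without KO saline replicate 3 (adjusted p = 0.983).

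The summed TPM of the 11 neutrophil markers went from 9.61 to 11.9 (saline) to 327 to 577 (ConA) in WT and from 5.41 to 10.9 (saline) to 425 to 981 (ConA) in KO. In the ConA livers most of the sum came from S100a8 and S100a9. After ConA Retnlg reached at most 41.7 TPM, and the granule genes Ngp, Camp and Ltf at most 27.9, 6.12 and 3.94 TPM. Mpo and Elane reached at most 0.26 and 0.24 TPM. Ly6g did not rise with the sum and was between 0.18 and 2.47 TPM after ConA. Its median went from 4.85 (saline) to 0.685 TPM (ConA) in WT and from 1.66 to 1.21 TPM in KO, with overlapping ranges. The part of neutrophils in the level of Lcn2 was not tested. The genes most like Lcn2 over the 14 libraries were Hp (r = 0.998), Saa2 (0.995) and Stap2 (0.994), of which Hp and Saa2 encode secreted acute phase proteins. Bdh2, an enzyme of mammalian siderophore synthesis, fell from 24.9 to 33.1 TPM to 3.53 to 6.25 TPM in WT (-2.35, limma adjusted p = 1.99e-05). In KO it fell from 26.2 to 30.2 TPM to 1.93 to 4.51 TPM (-3.05, adjusted p = 7.09e-07).

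Trf encodes transferrin, the plasma carrier of ferric iron, at chr9:103204001-103230444 (minus strand). It had 11275, 11303 and 10762 TPM in WT saline, 7693, 7024 and 9738 in KO saline, 14319, 14136, 11603 and 15659 in WT ConA, and 17910.4, 17929, 15401 and 15066 in KO ConA. After ConA every liver was above every saline liver of its genotype. The rise was 1.03 ± 0.16 on the log2 scale in KO (2.05-fold, limma adjusted p = 2.46e-04), whereas the WT value of 0.32 ± 0.13 missed the threshold (adjusted p = 0.0727). With single libraries left out the WT value ranged from 0.26 (without WT ConA replicate 4, adjusted p = 0.133) to 0.40 (without WT ConA replicate 3, adjusted p = 0.0064). The interaction was 0.72 ± 0.20 with an adjusted p of 0.0530. Averaging WT saline replicates 2 and 3 gave 0.72 (0.132), and with single libraries left out it ranged from 0.61 (without KO saline replicate 2, 0.135) to 0.85 (without KO saline replicate 3, 0.0304). Only 20.2% of the 50-base stretches of the transcript were free of other genes, the rest being shared with the overlapping gene Gm20425, which was not analysed here, so how its reads were split is uncertain.

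In the saline livers all 3 KO mice lay below all 3 WT mice for Trf (-0.46 ± 0.14, limma adjusted p = 0.0552), where 42.3% of all genes had no overlap. With single libraries left out the difference ranged from -0.60 (without KO saline replicate 3, adjusted p = 0.0134) to -0.36 (without KO saline replicate 2, adjusted p = 0.132). In the ConA livers the ranges of the genotypes overlapped (0.25, 95% interval -0.05 to 0.56).

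Tfrc, the receptor that takes up iron-loaded transferrin, was the lowest of the 10 in the saline livers (chr16:32608920-32632794, plus strand). It had 3.51, 5.63 and 6.01 TPM in WT saline, 4.75, 2.07 and 3.41 in KO saline, 7.18, 10.8, 3.27 and 8.70 in WT ConA, and 8.84, 9.65, 4.67 and 9.14 in KO ConA. In both ConA groups replicate 3 was the lowest. Tfrc rose in KO by 1.05 ± 0.27 (2.06-fold, limma adjusted p = 0.0053), although KO ConA replicate 3 was below the highest KO saline mouse. In WT the value was 0.42 ± 0.33 (adjusted p = 0.307), and with single libraries left out it ranged from 0.22 (without WT saline replicate 1, adjusted p = 0.657) to 0.72 (without WT ConA replicate 3, adjusted p = 0.0157). Its most alike genes were Cebpg (r = 0.95), Timm29 (0.94) and Papolg (0.94).

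Tfr2 encodes the second transferrin receptor, a sensor of iron-loaded transferrin on hepatocytes (chr5:137569840-137587481, plus strand). It had 181, 175 and 179 TPM in WT saline, 128, 156 and 146 in KO saline, 112, 118, 115 and 146 in WT ConA, and 116, 109, 105 and 115 in KO ConA. It fell after ConA in both genotypes without overlap, by 0.54 ± 0.13 on the log2 scale in WT (limma adjusted p = 0.0059) and 0.36 ± 0.11 in KO (adjusted p = 0.0147). The KO call was lost without KO saline replicate 2 (-0.30, adjusted p = 0.0803). With saline all 3 KO mice were below all 3 WT mice (-0.32, adjusted p = 0.0564), where 42.3% of all genes had no overlap. Tfr2 exceeded Tfrc in every liver, by 27.02 to 75.4 times in the saline groups and 10.9 to 35.1 times after ConA.

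Steap4 encodes a membrane metalloreductase that turns ferric into ferrous iron and is induced by inflammatory cytokines (chr5:7960457-7982213, plus strand). It had 25.0, 27.6 and 29.0 TPM in WT saline, 18.9, 16.2 and 22.4 in KO saline, 1524, 1465, 721 and 2098 in WT ConA, and 2343, 2535, 2057 and 2575 in KO ConA. Every ConA liver was far above every saline liver, and WT ConA replicate 3 was the lowest of the 8. The log2 fold change was 5.59 ± 0.30 in WT (48.2-fold, limma adjusted p = 1.29e-06) and 6.89 ± 0.13 in KO (118.5-fold, adjusted p = 9.31e-11).

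The interaction for Steap4 was 1.297 ± 0.36 with an adjusted p of 0.0503. With single libraries left out it ranged from 0.99 (without WT ConA replicate 3, adjusted p = 0.0247) to 1.51 (without WT ConA replicate 4, 0.0197), the adjusted p reached 0.137 (without WT saline replicate 3), and averaging WT saline replicates 2 and 3 gave 1.27 (0.129). KO saline was below WT saline in all mice (-0.49 ± 0.13, limma adjusted p = 0.0369), a call lost with those 2 libraries averaged (-0.46, adjusted p = 0.135), without any 1 of WT saline replicates 2 and 3 and KO saline replicates 1 and 2 (adjusted p from 0.0856 to 0.147), with no filter on low values (0.0647), and with 1 spread shared by all 14 libraries (0.322). KO ConA exceeded WT ConA by 0.80 ± 0.27 (adjusted p = 0.168), with overlapping ranges.

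The promoter of Steap4 is shown because it also held a STAT repeat and, in the same stretch, a C/EBP core motif, TTGCNNAA, both in capitals. The stretch is chr5:7960326-7960405 of GRCm38.p6 on the plus strand, again from RefSeq.
Steap4: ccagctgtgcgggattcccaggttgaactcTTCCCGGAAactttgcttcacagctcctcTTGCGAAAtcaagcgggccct

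The repeat lay 116 bases and the C/EBP core 87 bases before the start site. The C/EBP core occurred in 10.8% of all promoters. Of the 8 genes with a promoter in the table, Hamp, Hamp2 and Steap4 held the STAT repeat, while a C/EBP core was also found in Lcn2 (216 bases before its start site) and in 1 of the 2 promoters of Fth1 (129 and 58 bases before).

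Among the other genes of iron uptake and reduction, 3 of 7 tested rose and 1 fell in both genotypes, where 22.0% of all genes rose and 31.0% fell in WT, and 33.9% rose and 30.7% fell in KO. Slc11a2, the ferrous iron transporter DMT1, rose from 4.44 to 5.05 TPM to 33.8 to 59.7 TPM in WT (2.86, limma adjusted p = 5.54e-06). In KO it rose from 3.52 to 4.58 TPM to 25.0 to 41.3 TPM (2.81, adjusted p = 4.38e-07). Steap1, of the same family as Steap4, had at most 0.27 TPM in any saline liver and 5.17 to 13.9 TPM in the ConA livers. Slc39a14, the hepatocyte importer of iron not bound to transferrin, which was chosen after its values were seen, rose by 2.27 in WT and 2.78 in KO. Cp, which encodes ceruloplasmin, the ferroxidase of plasma, rose by 1.21 and 1.60.

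Slc40a1, the only known cellular iron exporter (ferroportin), fell in every ConA liver. The gene lies at chr1:45908068-45926523 on the minus strand. It had 73.6, 50.6 and 54.3 TPM in WT saline, 40.9, 37.9 and 45.4 in KO saline, 12.4, 10.3, 4.79 and 8.75 in WT ConA, and 10.9, 7.96, 2.99 and 4.52 in KO ConA. The highest ConA liver was below the lowest saline liver. The fall was 2.64 ± 0.27 on the log2 scale in WT (limma adjusted p = 5.01e-05) and 2.60 ± 0.31 in KO (adjusted p = 3.08e-05), to 0.161 and 0.165 of the saline level. With saline all 3 KO mice lay below all 3 WT mice (-0.50 ± 0.15, adjusted p = 0.0544), where 42.3% of all genes had no overlap. After ConA the ranges of the genotypes overlapped (-0.47, 95% interval -1.24 to 0.31).

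Kupffer cells, the liver macrophages, carry ferroportin too. The summed TPM of their 8 markers went from 92.7 to 155 (saline) to 13.9 to 53.0 (ConA) in WT and from 42.4 to 95.1 (saline) to 9.76 to 41.1 (ConA) in KO. Of the 8, Marco overlapped between saline and ConA in both genotypes, with 0.71 to 8.16 TPM in the saline livers and 1.24 to 8.48 TPM after ConA. Its KO median rose from 1.77 to 3.01 TPM. In KO the ranges of Timd4, Adgre1 and C1qa overlapped as well. Clec4f, which is restricted to these cells, had 11.1 to 40.8 TPM in the saline livers and 1.03 to 7.98 TPM after ConA, and none of the 8 markers was at 0 in any library. The part of these cells in the fall of Slc40a1 was not tested. The genes most like Slc40a1 over the 14 libraries included Tbcel (r = 0.992) and Ugt2b35 (0.989). Ugt2b35, a conjugating enzyme of liver, went from 26.4 to 61.5 TPM in the saline livers to 2.51 to 9.83 TPM after ConA.

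Of the ferritin chains, Ftl1 fell after ConA and Fth1 was not called. Fth1, the heavy chain with ferroxidase activity (chr19:9980598-9985098, plus strand), had 2785, 3345 and 3284 TPM in WT saline, 2608, 3224 and 3418 in KO saline, 3036, 3302, 3388 and 2980.3 in WT ConA, and 3286, 3374, 4137 and 3135 in KO ConA. The groups overlapped throughout, with log2 fold changes after ConA of 0.02 (95% interval -0.25 to 0.29) in WT and 0.18 (-0.15 to 0.51) in KO. Ftl1, the light chain that aids iron storage (chr7:45457944-45459884, minus strand), had 7297, 7585 and 7407 TPM in WT saline, 7014, 7781 and 7623 in KO saline, 3385, 3538, 4942 and 3435 in WT ConA, and 3336, 3265, 3759 and 3182 in KO ConA. All ConA livers were below all saline livers, and WT ConA replicate 3 was the highest of the 8. Ftl1 fell by 0.98 ± 0.15 on the log2 scale in WT (limma adjusted p = 6.21e-04) and by 1.14 ± 0.13 in KO (adjusted p = 1.85e-05).

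The ratio of Ftl1 to Fth1 was 2.23 to 2.69 in the 6 saline livers and 0.909 to 1.46 in the 8 ConA livers. Neither chain was called between genotypes with saline or with ConA. Only 9.36% of the 50-base stretches of Ftl1 occurred in no other gene, since 17 other genes carry parts of it, Ftl1-ps1 the most, so its level is uncertain. For Fth1 the share was 96.0%, and for Lcn2, Tfrc, Tfr2, Steap4 and Slc40a1 it was 100%.

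The mRNAs on which iron regulatory proteins act were found by sequence. The search took a C, any 5 bases and the loop CAGTGN with a last base other than G. The loop had to be followed by 5 bases that pair with the first 5 (G with T allowed). The whole of the longest coding transcript of each gene was searched, coding sequence included. Matches were found in 197 of 22527 genes (0.875%), among them Tfrc with 4 in the 3′ end, and Slc40a1, Fth1 and Ftl1 with 1 each before the coding sequence. The sites are shown because these 4 genes share them. The loop is in capitals, and the position is given on GRCm38.
Tfrc, chr16:32631220-32631246: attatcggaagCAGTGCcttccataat
Tfrc, chr16:32631599-32631625: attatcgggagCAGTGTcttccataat
Tfrc, chr16:32631664-32631690: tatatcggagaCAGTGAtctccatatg
Tfrc, chr16:32631711-32631737: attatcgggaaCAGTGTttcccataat
Slc40a1, chr1:45925466-45925492: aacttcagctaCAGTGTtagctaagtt
Fth1, chr19:9982733-9982759: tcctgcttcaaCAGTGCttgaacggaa
Ftl1, chr7:45459780-45459806: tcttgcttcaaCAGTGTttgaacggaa

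Of the genes with a site before the coding sequence, Slc40a1 and Ftl1 fell in both genotypes and Fth1 was not called, and Tfrc, with its sites in the 3′ end, rose in KO. RNA level alone does not measure translation. Aco1, which encodes iron regulatory protein 1, fell by 1.53 in WT and 1.54 in KO on the log2 scale (limma adjusted p = 9.09e-05 and 3.58e-06), from 55.6 to 76.4 TPM in the saline livers to 18.0 to 29.3 TPM. Pcbp1, an iron chaperone that loads ferritin, rose by 0.70 and 0.72.

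**Figure D3:**
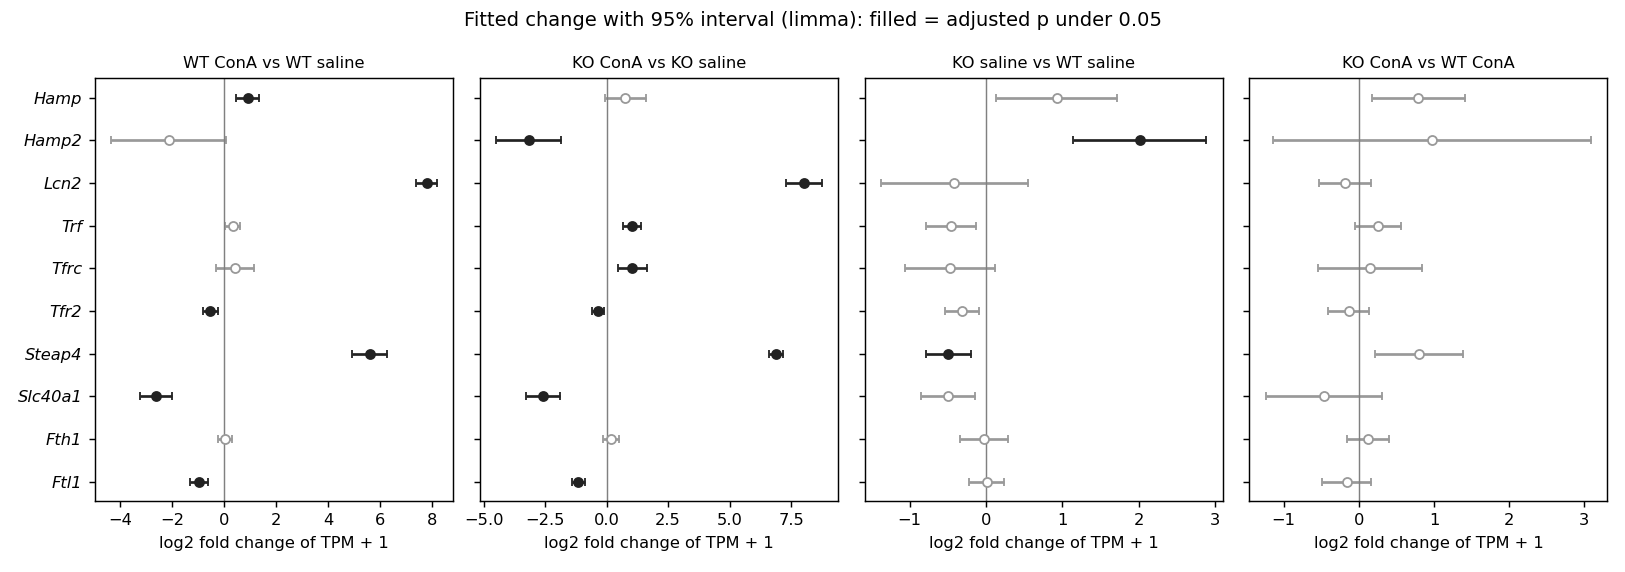
Fitted log2 fold change of TPM + 1 (horizontal axis, a separate scale in each panel) of the 10 genes in the 4 comparisons, with 95% intervals; filled points have an adjusted p under 0.05. Lcn2 and Steap4 lie farthest to the right after ConA in both genotypes, and no point is filled in KO ConA against WT ConA.

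Counted over the 10 genes, 6 were called after ConA in WT (Hamp, Lcn2 and Steap4 higher, Tfr2, Slc40a1 and Ftl1 lower), where 53.0% of all 10768 genes tested were called. In KO 8 were called (Lcn2, Trf, Tfrc and Steap4 higher, Hamp2, Tfr2, Slc40a1 and Ftl1 lower), where 64.6% of 10988 genes were. These shares are near those of all genes. Between the saline groups 2 of 10 were called, Hamp2 higher in KO (as were 6.30% of all genes) and Steap4 lower (12.9%), beside 19.2% in either direction. Between the ConA groups limma called 0 of 10, beside 0.428% of all genes, and 2 of 10 (Hamp and Steap4) had an unadjusted p under 0.05. For the interaction it called 0 of 10, beside 4.78% of all genes (2.64% higher, 2.14% lower), and again 2 (Trf and Steap4) had an unadjusted p under 0.05. In both comparisons the share of all genes at the unadjusted threshold was not computed, so these 2 counts have no background.

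The comparisons within and between genotypes share groups, so their counts are not independent. The interaction values of all genes had a median of 0.14, against which those of Trf (0.72) and Steap4 (1.297) are to be read. With the libraries rescaled to a common median ratio that median was 0.03 and Steap4 was 1.16 (adjusted p = 0.0480).

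The secreted carriers of hemoglobin and heme rose after ConA. Hp (haptoglobin, which binds free hemoglobin) rose from 4463 to 5051 TPM to 26404 to 32954 TPM in WT and from 3441 to 5236 TPM to 25475 to 27382 TPM in KO. Hpx (hemopexin, which binds free heme) rose from 4919 to 5545 TPM to 25329 to 31998 TPM in WT (2.46, limma adjusted p = 1.03e-06) and from 3741 to 4054 TPM to 26244 to 29937 TPM in KO (2.84, adjusted p = 4.99e-08). In the saline livers Hpx was lower in KO (-0.40, adjusted p = 0.0348). Hmox1, the heme oxygenase that frees iron from heme and was chosen after its values were seen, rose from 5.32 to 10.9 TPM to 142 to 231 TPM in WT (4.44) and from 4.53 to 7.83 TPM to 227 to 364 TPM in KO (5.29). Of the 9 genes of this role, 3 rose and 4 fell in WT, and 3 rose and 3 fell in KO. Of all genes, 22.0% rose and 31.0% fell in WT, and 33.9% rose and 30.7% fell in KO.

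The enzymes that make heme went down. After ConA 6 of 9 tested genes of heme synthesis and export fell and 1 rose in WT, and 7 fell and 1 rose in KO, where 31.0% and 30.7% of all genes were called lower. Alad, the second enzyme of the pathway, fell from 184 to 209 TPM to 41.8 to 72.4 TPM in WT (-1.70, limma adjusted p = 6.57e-05) and from 228 to 289 TPM to 40.4 to 57.3 TPM in KO (-2.30, adjusted p = 3.09e-07). Fech, which inserts iron into heme, fell by 1.15 and 0.86.

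Mitochondrial iron genes likewise fell or were not called, with 4 of 7 lower in WT and 5 of 7 in KO and none higher. Of all genes, 31.0% were called lower in WT and 30.7% in KO, and 22.0% and 33.9% higher. Glrx5, of the assembly of iron-sulfur clusters, fell by 0.99 in WT and 1.009 in KO, and Slc25a37, the mitochondrial iron importer mitoferrin, by 1.10 and 0.78. Iscu, the scaffold of iron-sulfur clusters, spanned 198 to 262 TPM (saline) and 157 to 209 (ConA) in WT, and 279 to 303 (saline) and 134 to 154 (ConA) in KO. It fell in KO (by 0.997 on the log2 scale, limma adjusted p = 1.26e-05) and gave -0.25 in WT (adjusted p = 0.195), with an interaction of -0.75 ± 0.18 (adjusted p = 0.0348), a call lost with WT saline replicates 2 and 3 averaged (-0.69, 0.114), with the libraries rescaled (-0.89, 0.0709), and without any 1 of WT saline replicates 2 and 3, KO saline replicates 1 and 2 and KO ConA replicates 2 and 4 (adjusted p from 0.0628 to 0.116).

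**Figure D4:**
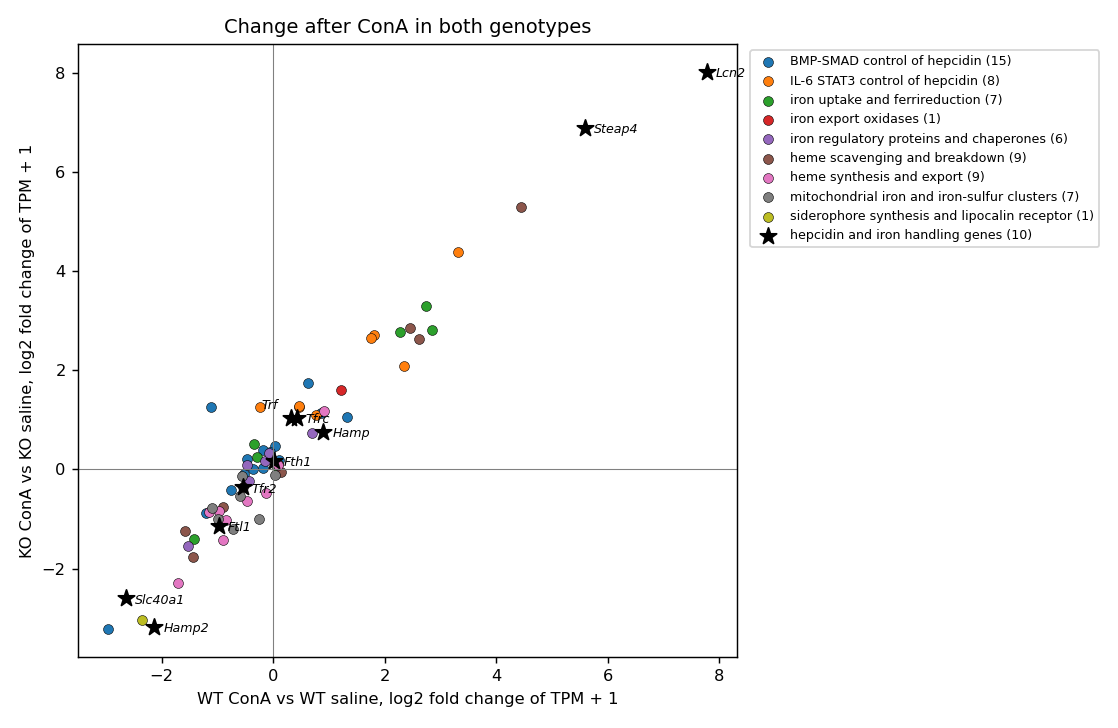
Log2 fold change of TPM + 1 after ConA in WT (horizontal axis) and KO (vertical axis) for the 63 other iron genes tested in both, coloured by role with the number of genes in brackets, and for the 10 genes described above as stars. Id1 is the point at -1.12 in WT and 1.25 in KO, and Lcn2 (7.78 and 8.02) lies farthest from zero.

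Over all the other iron genes, 39 of 63 tested were called after ConA in WT (16 higher, 23 lower) and 43 of 64 in KO (21 higher, 22 lower), near the shares of all genes given above. The median log2 fold change was -0.19 in WT and 0.08 in KO. Between the saline groups 11 of 62 were called (3 higher in KO, 8 lower), between the ConA groups 1 of 63, and in the interaction 3 of 65 (Id1, Stat3 and Iscu). Of all genes, 19.2%, 0.428% and 4.78% were called in these comparisons.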

How the data were processed

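Total liver RNA was sequenced as single 50-base reads on a BGISEQ-500. The authors deposited 1 table of TPM per mouse. The submitters' processing notes name Bowtie2, RSEM 1.3.1 and GRCm38.p6, whereas the study's methods describe another aligner and counter, so the route to the TPM is uncertain, and depth is not given in the sources used here. Each comparison was fitted with limma 3.58.1 (R 4.3.3, eBayes with trend) on log2(TPM + 1), over genes with a TPM of at least 1 in as many libraries as the smaller group holds (3 for the interaction, fitted over all 14 libraries). Calls were made where the Benjamini-Hochberg adjusted p was under 0.05. Fold changes on this scale are understated for low genes. The study's methods name a count test, which TPM do not allow. A simulation with independent noise checked only that the fit calls planted changes. It held no near-identical pair and no library that stood apart, so it cannot speak to those features of the data. The 10 genes, the lists and the tests were chosen with earlier results of these data known. Other iron genes were named if called between genotypes or in the interaction, or if among the 2 with the smallest p of their role in WT. A few genes that these rules name are not reported here. Sequences came from RefSeq promoters (8 of the 10 genes had one) and GENCODE vM21 transcripts. Replicates are separate mice per the labels. Alternatives were another pseudocount (0.1), filter (5, none), scaling, shared spread, robust eBayes, a replicate block, averaged or omitted libraries.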

Additional observations from a re-analysis of the deposited data

Results flagged for a closer look

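In groups of 4, a library was noted where its gap to the next was too large a part of the range by Dixon's test on log2(TPM + 1) at the 95% level. This was found in 6 of 76 gene and group pairs, and chance gives about 1 in 20. Of the 6, 3 were WT ConA replicate 3, with Ftl1 highest at 4942 TPM (others 3385 to 3538), Acvr2a lowest at 1.55 (others 4.18 to 4.65) and Smad4 lowest at 3.47 (others 7.49 to 8.11). Another 2 were KO ConA replicate 3, with Tfrc lowest at 4.67 TPM (others 8.84 to 9.65) and Bdh2 highest at 4.51 (others 1.93 to 2.25). The last was Cp in WT ConA replicate 4, at 1342 TPM (others 869.7 to 928).

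The interaction term was called for Id1 (2.37 on the log2 scale, KO minus WT), Stat3 (0.89) and Iscu (-0.75), with limma adjusted p values of 0.0213, 0.0314 and 0.0348. Over all genes 4.78% were called. Of 22 alternatives, 4 lost the call of Id1, 7 that of Stat3 and 9 that of Iscu. All 3 calls were lost with WT saline replicates 2 and 3 averaged.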

How the results depend on the processing

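With TPM alone, depth and counting error are unknown, and 3 or 4 mice per group set the precision. Of 829 repeats for the 10 genes, 759 kept direction and side of the threshold. Where a value is given below, the cause of the change was not tested.

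After ConA the counts of the 10 genes called stayed within 6 to 8 in WT and 7 to 8 in KO. KO ConA against WT ConA gave 0 of 10 in every alternative. KO saline against WT saline (2 of 10) gave 4 with the filter at a TPM of 5, with robust eBayes and with the replicate block, 1 with no filter, 0 with all 14 libraries sharing 1 spread and 0 when WT saline replicates 2 and 3 were averaged, and between 0 and 4 with single libraries left out. Other iron genes called there (11) numbered 3 with no filter, 1 with all 14 libraries, 0 with those replicates averaged, and from 0 up to 18 with single libraries left out (18 without KO saline replicate 3). Between the ConA groups (1) they numbered 0 with no filter and 3 with all 14 libraries. In the interaction the 10 genes (0 called) gave 2 with the filter at 5, with robust eBayes and with both ConA replicates 3 left out, 1 when rescaled, and 0 to 2 with single libraries left out. The other iron genes (3) gave 0 with WT saline replicates 2 and 3 averaged, 9 with both ConA replicates 3 left out, and 0 to 5 with single libraries left out.

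Signs turned only for values of the 10 genes that did not pass the test. Fth1 after ConA in WT was -0.011 with both ConA replicates 3 left out (-0.063 to 0.069 with single libraries left out), and Fth1 in KO saline against WT saline was 0.030 rescaled and 0.012 with WT saline replicates 2 and 3 averaged (-0.11 to 0.086). Ftl1 there ranged over -0.023 to 0.052, and in KO ConA against WT ConA Hamp2 ranged over -0.10 to 1.51 (lowest without WT ConA replicate 4) and Tfrc over -0.15 to 0.36. In the interaction Slc40a1 was -0.030 with a pseudocount of 0.1 and -0.10 rescaled (-0.22 to 0.30), Hamp ranged over -0.56 to 0.12 and Lcn2 over -0.17 to 0.75.

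The deviations of same-numbered libraries correlated at -0.20 to 0.41 (highest for replicates 3 of the ConA groups), and in no comparison were all pairs above 0.1, so the numbers were not taken as pairs. Replicate 4 occurs only in the ConA groups, so in ConA against saline the replicate block removes that library from the contrast. The block called Hamp2 in WT after ConA (-1.05, limma adjusted p = 0.0200), the same value as without WT ConA replicate 4. It lost Tfr2 in KO (-0.38, 0.0605), called Hamp (0.93, 0.0489) and Slc40a1 (-0.50, 0.0424) in KO saline against WT saline, and lost the interaction of Iscu (0.0555).

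Over all genes, 2009 calls in KO saline against WT saline became 958 with no filter, 332 with all 14 libraries and 49 with WT saline replicates 2 and 3 averaged. The 45 calls of KO ConA against WT ConA became 3 with no filter, 25 rescaled, 640 with all 14 libraries and 140 with the block, and the 541 of the interaction became 345 with no filter, 358 with the block, 28 with those replicates averaged and 1591 with both ConA replicates 3 left out. Rescaling moved the share of calls that were higher from 32.8% to 49.1% in the first and from 80% to 48.0% in the second.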
